A study of Mus musculus with 12 samples.

Results

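Foxd1, Ttn, Daam2, Sstr5, Pir and Osgin1 are 6 of the 24318 genes in the deposited table. They lie outside the classic antioxidant pathways, and they were chosen by their fragment counts, which were higher in cells with T-N2G than in mock cells. The cells were immortalized mouse embryonic fibroblasts, and all 4 groups carried the genotype MafF-/-::MafG-/-::MafK-/-, so that none had a functional small Maf gene of its own. T-N2G is a heterodimer of Nrf2 and MafG held together by a tether (spelled T-NG2 in the genotype labels). The groups were T-N2G cells given diethyl maleate (DEM), T-N2G cells given vehicle, mock cells given DEM and mock cells given vehicle, with 3 libraries each. DEM, an electrophile that depletes glutathione, was given at 100 µM, and each treatment lasted 12 h. The promoter that drove T-N2G, and whether either population was grown from a clone, are not given in the sources used here. Nothing in the labels tells whether the replicates came from different cultures, so p-values measure the spread between these libraries, which may be technical.

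Nrf2 is a transcription factor that is degraded in resting cells and accumulates when electrophiles modify its repressor Keap1. It binds DNA together with a small Maf protein at antioxidant response elements, short sites near genes for glutathione synthesis, quinone reduction and thiol repair. Nrf2 needs a small Maf partner for this binding, and T-N2G carries both partners in 1 molecule. The 6 genes belong to other kinds of biology. Foxd1 encodes a forkhead transcription factor of the kidney stroma, and Ttn encodes titin, the giant elastic protein of the muscle sarcomere. Daam2 encodes a formin that assembles actin filaments downstream of Dishevelled in Wnt signalling. Sstr5 encodes a somatostatin receptor that couples to inhibitory G proteins. Pir encodes pirin, an iron-binding nuclear protein that associates with Bcl3 and NF-kB, and Osgin1 encodes an inhibitor of cell growth induced by oxidative stress. PIR and OSGIN1 are known Nrf2 targets in human cells.

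The sequences of Pir and Osgin1 before the transcription start are shown because, of the windows found, only these held a match to a searched motif before the start. Both come from RefSeq (GRCm38.p6, plus strand) and cover the 250 bases before the start, at chrX:164269181-164269430 for Pir and chr8:119436897-119437146 for Osgin1. Capitals mark the match, which lay on the strand opposite to the gene and is printed here as read along the gene.
Pir: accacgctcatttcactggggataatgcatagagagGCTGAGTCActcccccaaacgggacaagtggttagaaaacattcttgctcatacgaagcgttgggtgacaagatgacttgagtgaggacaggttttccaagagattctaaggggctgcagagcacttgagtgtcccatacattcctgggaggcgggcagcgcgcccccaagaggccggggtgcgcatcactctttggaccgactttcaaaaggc
Osgin1: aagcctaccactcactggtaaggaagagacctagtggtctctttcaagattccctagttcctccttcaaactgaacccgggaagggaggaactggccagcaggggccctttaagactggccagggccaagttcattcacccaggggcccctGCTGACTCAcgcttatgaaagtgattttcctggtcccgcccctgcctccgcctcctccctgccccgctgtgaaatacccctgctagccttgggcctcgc
The core searched was TGACNNNGC, with TGAGNNNGC as its G variant, on both strands of windows of 250 bases before to 50 bases after each start. The core was found in 12.4% and the G variant in 17.6% of the 32851 RefSeq windows. On its own strand the Pir match before the start read TGACTCAGC, and its outermost base lay 214 bases before the start. A further Pir match, TGACTCCGC, began at base 20 of the transcript. The Osgin1 match read TGAGTCAGC and began 99 bases before the start. These strings, with the 3 free bases fixed as in the matches themselves, were found in 0.454% (TGACTCAGC) and 0.414% (TGAGTCAGC) of all windows, shares that describe the strings alone. Daam2 had a match in 1 of its windows, TGAGCAAGC on the gene's strand from base 37 of the transcript. Windows were found for 5 of the 6 genes, and those of Foxd1 and Ttn held no match to either motif. A match describes these letters and not a bound site.

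Library totals lay between 18863560 and 23095692 fragments, and each library had fragments of 14810 to 15134 genes. Levels are CPM, the fragments of a gene relative to the effective size of its library, and FPKM also takes transcript length into account. Log2 fold changes carry an approximate SE from the edgeR fit of all 12 libraries, and a gene was called at an adjusted p under 0.05. The transgene was visible in the counts, since Nfe2l2 and Mafg were higher in every T-N2G library than in every mock library. Nfe2l2, which encodes Nrf2, averaged 556 ± 94.5 CPM in T-N2G DEM and 599 ± 109 CPM in T-N2G vehicle, against 62.4 ± 3.78 CPM in mock DEM and 53.2 ± 5.56 CPM in mock vehicle (SD, n = 3 each). All 9 fibroblast markers were detected, at summed levels of 11900 to 14800 CPM in T-N2G DEM, 14800 to 19200 CPM in T-N2G vehicle, 13900 to 16900 CPM in mock DEM and 14900 to 18300 CPM in mock vehicle. With T-N2G over mock, edgeR called 0 of the 9 in either treatment, with 3 lower under DEM at an unadjusted p under 0.05, 2 lower under DEM by DESeq2, and 1 higher and 4 lower under DEM and 3 higher in vehicle with the replicate block (a term for the replicate number, which pairs the libraries). DEM lowered 2 of the 9 in T-N2G cells, against 7.55% of all tested genes, and with the block 8 were lower and 1 higher, against 22.2% and 22.8%. In mock cells edgeR called 0 lower, against 6.18%, with 2 at an unadjusted p under 0.05 and 1 by DESeq2, and with the block 6 were lower and 1 higher, against 21.9% and 20.9%. The marker higher with the block was Thy1 in both populations. The part of this in the DEM effects was not tested. The endothelial, leukocyte, epithelial and neuronal marker lists summed to at most 26.3 CPM in any library, and edgeR called 0 of their 7 tested genes with T-N2G over mock, none of which had an unadjusted p under 0.05 or a call by DESeq2. With the block 1 endothelial gene was lower and 1 epithelial gene higher under DEM. The populations also differed in Y-linked transcripts, whose 4 genes summed to 20.6 to 22.1 CPM in T-N2G DEM and 22.7 to 24.9 CPM in T-N2G vehicle, against 11.5 to 13.9 CPM in mock DEM and 13.7 to 16.2 CPM in mock vehicle. Of these 4 genes, Ddx3y was called higher with T-N2G in vehicle, and Ddx3y, Eif2s3y and Uty were called higher under DEM (edgeR, adjusted p 0.0154 in vehicle, and 0.000612, 0.0301 and 0.0358 under DEM). The part of this difference between the populations in the T-N2G over mock values was not tested.

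All 6 genes were higher in all 6 T-N2G libraries than in all 6 mock libraries, a pattern held by 1.28% of the 12469 tested genes. This contrast chose the genes, so their T-N2G over mock values are a description and carry no test. All 6 passed the filter on low counts through T-N2G libraries, and Sstr5 did so through those with DEM. In bulk RNA, fewer cells that express a gene and less RNA per cell cannot be told apart. The genes were scarce even where they were highest. On the length-scaled FPKM of the deposited table, Foxd1 averaged 3.67 ± 1.21 and Pir 3.49 ± 0.0743 FPKM in T-N2G DEM cells, and their ranges overlapped. Sstr5 at 1.87 ± 0.912 and Osgin1 at 1.83 ± 0.345 FPKM also overlapped, and below them came Daam2 at 0.336 ± 0.0475 and Ttn at 0.078 ± 0.021 FPKM (SD, n = 3 each). Of all tested genes, 26.8% had a lower mean FPKM than Foxd1 in that group, and 0.802% had a lower mean than Ttn. In mock vehicle cells the 6 means ran only up to the 0.274 ± 0.126 FPKM of Pir, and Sstr5 was at 0.00695 ± 0.012 FPKM.

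**Figure D1:**
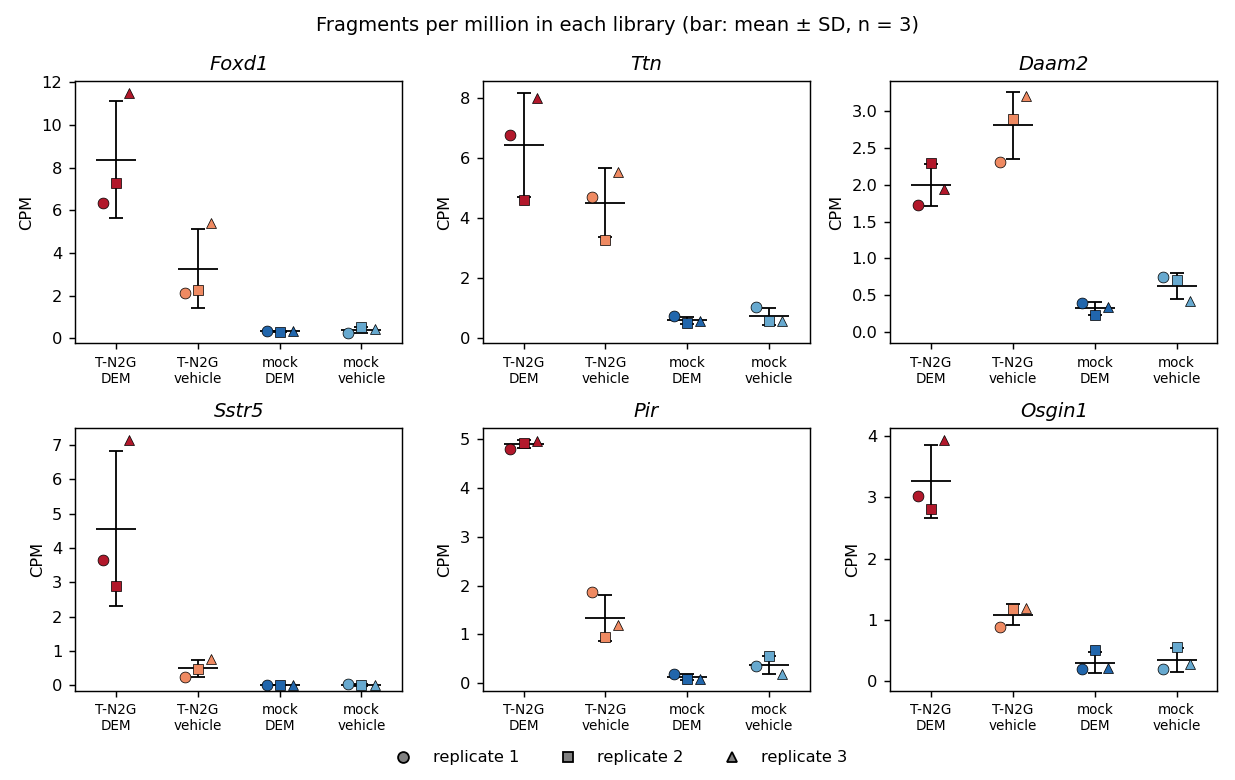
CPM of the 6 genes in each of the 12 libraries (y axis, linear, with its own range per gene) by group (x axis); horizontal bars are means, whiskers are SD over 3 libraries, and marker shapes are replicate numbers. Every T-N2G library lay above every mock library for each gene, and DEM libraries lay above vehicle libraries without overlap in T-N2G cells for Foxd1, Sstr5, Pir and Osgin1. The share of all tested genes without overlap between DEM and vehicle is not given here or below. Lack of overlap therefore only describes these genes.

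Foxd1 had the highest mean FPKM of the 6 in both T-N2G groups, although Pir was higher in T-N2G DEM replicates 1 and 2 and in T-N2G vehicle replicate 1. It had 128, 156 and 213 fragments (6.34, 7.30 and 11.5 CPM) in T-N2G DEM libraries, and 43, 48 and 113 fragments (2.11, 2.27 and 5.39 CPM) in T-N2G vehicle libraries. Mock DEM libraries had 7, 6 and 8 fragments, and mock vehicle libraries 5, 11 and 9. The 2 T-N2G groups did not overlap, replicate 3 was the highest in both, and the mock groups overlapped. The fold of T-N2G over mock was 25.5 under DEM (log2 4.67 ± 0.45) and 8.05 in vehicle (log2 3.01 ± 0.46).

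Ttn gave 137, 98 and 148 fragments (6.78, 4.59 and 7.99 CPM) in T-N2G DEM libraries and 96, 69 and 116 fragments (4.72, 3.27 and 5.54 CPM) in T-N2G vehicle libraries. In mock cells it gave 15, 11 and 13 fragments with DEM and 21, 12 and 12 with vehicle. The DEM and vehicle libraries overlapped in both populations, while in each of the 3 same-numbered T-N2G pairs the DEM library was the higher. T-N2G over mock was 10.7-fold under DEM (log2 3.41 ± 0.32) and 6.19-fold in vehicle (log2 2.63 ± 0.31).

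Daam2 was the only one of the 6 with a lower mean under DEM in both populations. T-N2G DEM libraries had 35, 49 and 36 fragments (1.73, 2.29 and 1.94 CPM), and T-N2G vehicle libraries had 47, 61 and 67 (2.31, 2.89 and 3.20 CPM). Mock DEM libraries had 8, 5 and 8 fragments (0.392, 0.231 and 0.345 CPM), and mock vehicle libraries had 15, 15 and 9 (0.749, 0.708 and 0.424 CPM). In CPM the 4 groups did not overlap, and their order from highest to lowest was T-N2G vehicle, T-N2G DEM, mock vehicle and mock DEM. The gaps between vehicle and DEM were narrow, at 2.31 against 2.29 CPM in T-N2G cells and 0.424 against 0.392 CPM in mock cells. In fragments the T-N2G groups overlapped, with 49 in DEM replicate 2 and 47 in vehicle replicate 1. T-N2G over mock was 6.09-fold under DEM (log2 2.61 ± 0.29) and 4.44-fold in vehicle (log2 2.15 ± 0.25).

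Sstr5 was barely detected in mock cells. It had 74, 62 and 132 fragments (3.66, 2.90 and 7.13 CPM) in T-N2G DEM libraries and 5, 10 and 16 fragments (0.246, 0.474 and 0.763 CPM) in T-N2G vehicle libraries. No fragment was counted in the 3 mock DEM libraries, and 1 was counted over the 3 mock vehicle libraries. The T-N2G groups did not overlap, and both lay above every mock library. With DEM the 268 T-N2G fragments against 0 in mock cells gave at least 97.0-fold, from a floor of 3 counts over the group. With vehicle the 31 fragments against 1 gave a ratio of 31.0, with a 95% exact binomial interval of 5.17 to 1260 for counting error alone.

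Pir was the most even of the 6 across T-N2G DEM libraries, at 97, 105 and 92 fragments (4.80, 4.92 and 4.97 CPM). T-N2G vehicle libraries had 38, 20 and 25 fragments (1.87, 0.948 and 1.19 CPM). Mock DEM libraries had 4, 2 and 2 fragments (0.196, 0.0924 and 0.0863 CPM), and mock vehicle libraries 7, 12 and 4 (0.350, 0.566 and 0.189 CPM). The T-N2G groups stood well apart. The mock groups overlapped, since the highest DEM library (0.196 CPM) lay above the lowest vehicle library (0.189 CPM), each with 4 fragments. The fold of T-N2G over mock was 38.0 under DEM (log2 5.25 ± 0.40) and 3.58 in vehicle (log2 1.84 ± 0.37).

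Osgin1 had 61, 60 and 73 fragments (3.02, 2.81 and 3.94 CPM) in T-N2G DEM libraries and 18, 25 and 25 fragments (0.885, 1.18 and 1.19 CPM) in T-N2G vehicle libraries. Mock cells gave 4, 11 and 5 fragments with DEM and 4, 12 and 6 with vehicle. The T-N2G groups did not overlap, and the mock groups were intermingled, with replicate 2 the highest of each. T-N2G over mock was 10.4-fold under DEM (log2 3.38 ± 0.36) and 3.06-fold in vehicle (log2 1.61 ± 0.39). Against the tested genes as a whole, 2.61% were called higher with T-N2G under DEM and 0.305% in vehicle.

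DEM raised Foxd1, Sstr5, Pir and Osgin1 in T-N2G cells, and Ttn and Daam2 did not pass the test there. This contrast shares the T-N2G libraries with the comparison that chose the genes. Sstr5 was 9.07-fold higher with DEM than with vehicle (log2 3.18 ± 0.46, 95% interval 2.11 to 4.25, adjusted p = 0.00198, quasi-likelihood test of edgeR, Benjamini-Hochberg adjusted over 12469 genes, as every adjusted p here). Pir was 3.66-fold higher (log2 1.87 ± 0.28, interval 1.23 to 2.52, adjusted p = 0.0012), Osgin1 2.97-fold (log2 1.57 ± 0.31, interval 0.87 to 2.28, adjusted p = 0.00549) and Foxd1 2.56-fold (log2 1.36 ± 0.33, interval 0.59 to 2.12, adjusted p = 0.0166). Ttn differed by log2 0.51 ± 0.25 (interval -0.07 to 1.10, adjusted p = 0.187) and Daam2 by log2 -0.49 ± 0.22 (interval -1.0 to 0.02, adjusted p = 0.153). Thus 4 of 6 were called higher and 0 lower, where 10.1% of tested genes were called higher and 7.55% lower. The count of 0 lower calls came from edgeR, with 1 gene at an unadjusted p under 0.05 (Daam2) and 0 by DESeq2. Sstr5 entered the test through the raised group of this same contrast, so its call adds no support to the count; with no filter its adjusted p was 0.000707. Each of the 4 called genes was higher with DEM in 3 of 3 same-numbered pairs, which follows from the lack of overlap between the groups.

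With the replicate block, Ttn was called higher (adjusted p = 0.00562) and Daam2 lower (adjusted p = 0.0481) in T-N2G cells, where 22.8% of tested genes were called higher and 22.2% lower. The Foxd1 call did not hold without T-N2G DEM replicate 3 (log2 1.05, adjusted p = 0.0738), without T-N2G vehicle replicate 1 (1.12, 0.066) or without T-N2G vehicle replicate 2 (1.15, 0.0568). The library codes of replicates 1 and 2 run on from each other and those of replicate 3 belong to another run of numbers, whose meaning is not given in the labels. Within replicates 1 and 2 the log2 difference was 1.63 for Foxd1 (adjusted p = 0.0241), 3.16 for Sstr5 (0.0259), 1.79 for Pir (0.0472), 1.49 for Osgin1 (0.102), 0.51 for Ttn (0.409) and -0.37 for Daam2 (0.476). The calls of Foxd1, Sstr5 and Pir held there and that of Osgin1 did not. Within the same replicates T-N2G over mock ran between log2 1.41 (Osgin1) and 2.48 (Foxd1) in vehicle and between 2.68 (Daam2) and 5.03 (Pir) under DEM, over the 5 genes with a fitted fold.

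**Figure D2:**
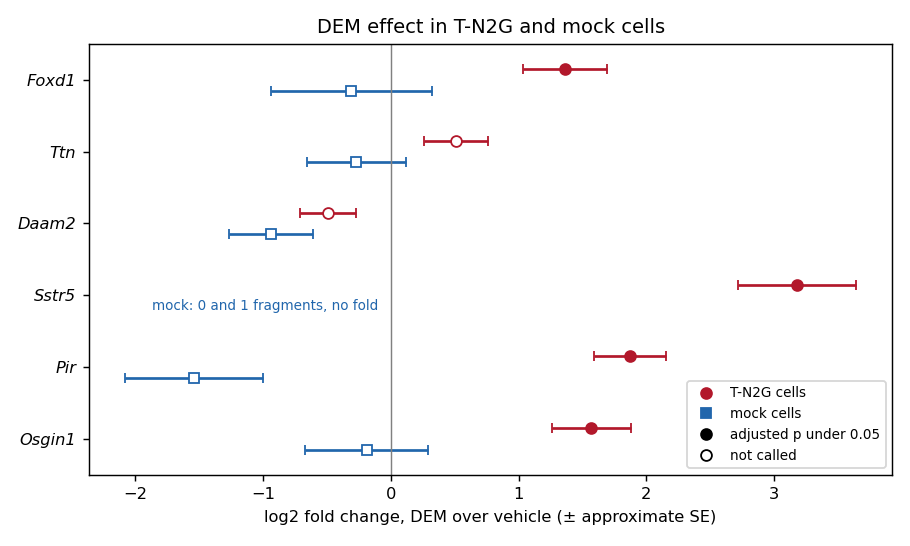
Log2 fold change of DEM over vehicle (x axis) for the 6 genes (y axis) in T-N2G cells (red circles) and mock cells (blue squares), with whiskers of 1 approximate SE from the edgeR fit of 12 libraries; filled symbols passed adjusted p 0.05. Sstr5 at 3.18, Pir at 1.87, Osgin1 at 1.57 and Foxd1 at 1.36 are filled in T-N2G cells, and no mock symbol is filled.

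In mock cells, without T-N2G, DEM raised none of the 5 genes with a fitted fold, and their point estimates were all below 0. Pir had the largest, log2 -1.54 ± 0.54 (interval -2.79 to -0.29, adjusted p = 0.0792), from 8 fragments with DEM and 23 with vehicle over the group. Daam2 had log2 -0.94 ± 0.33 (interval -1.71 to -0.18, adjusted p = 0.0769). Its 3 DEM libraries lay below its 3 vehicle libraries, where the nearest had 8 fragments with DEM and 9 with vehicle. Foxd1 had log2 -0.31 ± 0.63 (interval -1.76 to 1.14, adjusted p = 0.783), Ttn -0.27 ± 0.39 (interval -1.17 to 0.64, 0.69) and Osgin1 -0.19 ± 0.48 (interval -1.29 to 0.90, 0.824). Between 8 and 45 fragments per group stood behind these values. By edgeR or DESeq2 0 of the 5 genes were called in mock cells, with 2 at an unadjusted p under 0.05, where 7.75% of all tested genes were called higher and 6.18% lower. These shares are no measure of the 5 genes, which had few fragments in mock cells. All of them but Ttn passed the filter on low counts through the T-N2G libraries. With the replicate block Pir was called lower in mock cells (adjusted p = 0.0443), where 20.9% of tested genes were called higher and 21.9% lower.

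Averaged over both populations, DEM lowered Daam2 by 1.64-fold (log2 -0.72 ± 0.20, interval -1.18 to -0.26, adjusted p = 0.0161). This average is uncorrelated with the choosing contrast only in a balanced design with equally precise groups. Daam2 had 120 fragments in T-N2G DEM and 175 in T-N2G vehicle, against 21 in mock DEM and 39 in mock vehicle. Its average is therefore not free of the choice of genes. The DEM library was the lower in all 6 same-numbered pairs, which follows from the lack of overlap in CPM. Of the tested genes 15.8% were called lower and 17.4% higher in this contrast. The Daam2 call did not hold within replicates 1 and 2 (log2 -0.79, adjusted p = 0.0636). Osgin1 had log2 0.69 ± 0.29 (adjusted p = 0.0851, and 0.0417 with the replicate block, where 28.4% of tested genes were called higher and 29.7% lower). Foxd1 had log2 0.52 ± 0.36 (adjusted p = 0.289), Pir 0.17 ± 0.37 (0.76) and Ttn 0.12 ± 0.24 (0.721), averages of effects with opposite signs in the 2 populations. Sstr5 has no such value because mock cells gave too few fragments.

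The antioxidant genes that Nrf2 is best known for moved with DEM in the same T-N2G libraries. All 14 genes of that list were called higher by DEM in T-N2G cells, from log2 0.80 for G6pdx, which supplies NADPH, to 3.10 for Gsta4, a glutathione transferase, with a median of 1.87 against 0.0 over all tested genes, of which 10.1% were called higher. Sstr5 at 3.18 ± 0.46 lay at the top of that range, within the SE of Gsta4 (3.10 ± 0.26). Pir was at the median, and Ttn and Daam2 lay below the range. In mock cells 2 of the 14 were called higher, namely Hmox1, which breaks down heme (log2 1.00, adjusted p = 0.00753), and Slc7a11, the cystine importer (0.68, 0.0328), and the median was 0.03 against -0.01 over all tested genes, of which 7.75% were called higher. With the replicate block 5 were called higher and 1 lower, where 20.9% and 21.9% of all tested genes were. With T-N2G over mock, 14 of 14 were called higher under DEM (median 2.47) and 6 in vehicle (median 0.64, and 13 with the block). Gclc and Gclm, the subunits of the enzyme that starts glutathione synthesis, and Srxn1, which repairs oxidized peroxiredoxins, were 5.59-fold, 5.51-fold and 6.15-fold higher with T-N2G under DEM (each adjusted p 1.63e-07). Their levels were far higher than those of the 6 genes, with Gclm at 273 CPM in T-N2G DEM, 73.7 CPM in T-N2G vehicle, 49.5 CPM in mock DEM and 49.4 CPM in mock vehicle.

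**Figure D3:**
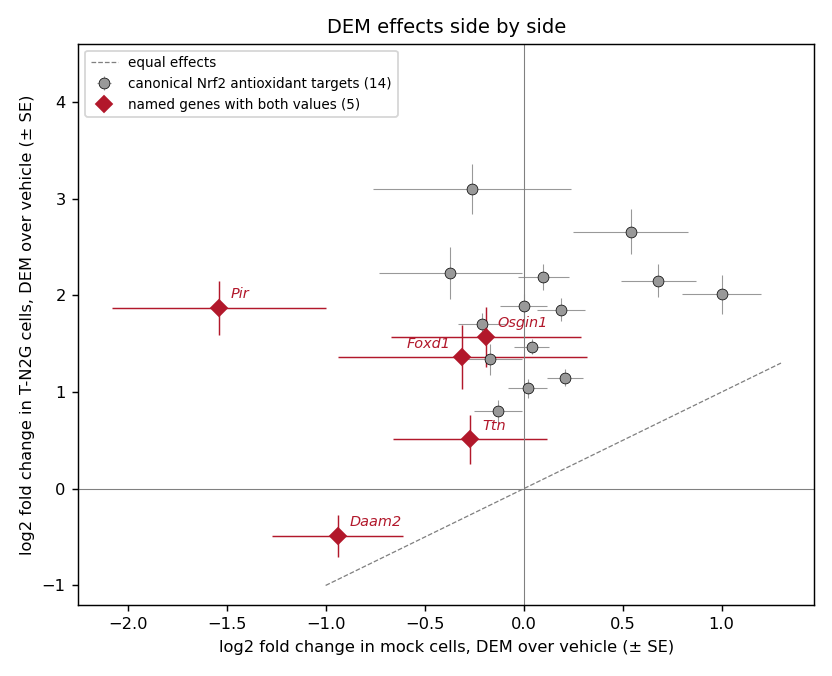
DEM over vehicle in T-N2G cells (y axis, log2) against DEM over vehicle in mock cells (x axis, log2) for the 5 genes with both values (red diamonds) and the 14 antioxidant targets (grey circles), with whiskers of 1 approximate SE and a dashed line of equal effects. Every point lies above the line; Pir stands to the left of the antioxidant targets at -1.54 in mock cells and 1.87 in T-N2G cells, and Daam2 is the only point below 0 in T-N2G cells.

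Calls with T-N2G over mock among relatives and partners of the 6 genes are given list by list. The lists are short, so no count is read as a departure from the shares over all tested genes. Over all tested genes 2.61% were called higher and 1.11% lower under DEM (10.3% and 9.32% with the block), 0.305% higher and 0.00802% lower in vehicle (3.06% and 3.24% with the block), and the median log2 difference was 0.0 in both. Of 41 other forkhead genes 19 were tested, and with T-N2G under DEM 1 was called higher and 0 lower (median 0.01). It was Foxq1, a forkhead transcription factor, at 1.09 CPM in T-N2G DEM, 0.832 CPM in T-N2G vehicle, 0.369 CPM in mock DEM and 0.765 CPM in mock vehicle (log2 1.55 ± 0.37 under DEM, adjusted p = 0.0353). None was called in vehicle by edgeR or DESeq2, with 1 at an unadjusted p under 0.05 and 1 called lower with the block. Of 16 genes of the Foxd1-lineage kidney stroma 11 were tested, and with T-N2G under DEM edgeR called 1 lower and DESeq2 2 lower. The edgeR call was Ntn1, the secreted guidance protein netrin-1, at 19.8 CPM in T-N2G DEM against 35.2 CPM in mock DEM (log2 -0.82 ± 0.21, adjusted p = 0.048), and the block called 2 higher and 2 lower. In vehicle 0 of the 11 were called by edgeR or DESeq2, with 2 lower at an unadjusted p under 0.05, and 2 higher and 2 lower with the block.

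Other sarcomere and muscle genes ranged widely. Of 40, 24 had at most 10 fragments over all 12 libraries, with none for Myh4, Myl1, Myl3 and Actc1, and 16 had more. Among the 16, the cardiac troponin gene Tnnt2 was at 6.58 CPM in T-N2G DEM, 8.0 CPM in T-N2G vehicle, 9.85 CPM in mock DEM and 10.2 CPM in mock vehicle. Mef2c, a transcription factor of muscle and other tissues, was at 10.3, 13.1, 10.5 and 13.1 CPM in the same groups, and Neb, Nebl, Myom1, Ldb3 and Acta1 lay between 0.655 and 6.69 CPM. Myod1, Myog and Ckm, which define skeletal muscle, had 10, 2 and 4 fragments over the 12 libraries. The few fragments of Myod1 and Myog all lay in T-N2G libraries. Myod1 averaged 0.116 CPM in T-N2G DEM and 0.0481 CPM in T-N2G vehicle. Those of Ckm lay in vehicle libraries of both populations. None of these genes was tested. The summed level of the list was 484 to 580 CPM in T-N2G DEM, 449 to 606 CPM in T-N2G vehicle, 473 to 567 CPM in mock DEM and 400 to 502 CPM in mock vehicle. Most of it was Tpm2, a tropomyosin that fibroblasts also express, at 510, 490, 497 and 425 CPM in these groups. Of the 9 tested members 0 were called with T-N2G under DEM or in vehicle by edgeR or DESeq2, with 1 lower at an unadjusted p under 0.05 under DEM and 1 in each direction in vehicle. The block called 2 lower under DEM, and 2 higher and 1 lower in vehicle. Of 15 titin-binding and titin-signalling genes 8 were tested, with 0 calls by edgeR or DESeq2 in either comparison, 1 lower at an unadjusted p under 0.05 in vehicle, and 3 lower under DEM and 1 lower in vehicle with the block.

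Among 13 other formins 11 were tested, and with T-N2G under DEM 1 was called higher and 1 lower, or 3 higher and 2 lower with the block. Fmn1, a formin of limb and kidney development, was at 109 CPM in T-N2G DEM against 70.1 CPM in mock DEM (log2 0.63 ± 0.10, adjusted p = 0.00236). Daam1, the closest relative of Daam2, went the other way, at 61.4 CPM against 80.1 CPM (log2 -0.38 ± 0.09, adjusted p = 0.0365). In vehicle edgeR called 0 of the 11, while DESeq2, the block and an unadjusted p under 0.05 each gave 1 higher and 0 lower. Fmn1 in vehicle had log2 0.44 ± 0.10 (edgeR, adjusted p = 0.107, and 9.7e-06 with the block). Of 22 Wnt planar cell polarity genes 20 were tested and 0 were called with T-N2G by edgeR or DESeq2, with 2 lower under DEM and 3 lower in vehicle at an unadjusted p under 0.05. The block called 1 higher and 3 lower under DEM, and 1 lower in vehicle.

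The ligand of the somatostatin receptors was not detected. Sst and Sstr3 had 0 fragments over the 12 libraries, Sstr1 had 2, Sstr4 had 1 and Sstr2 had 27, and Cort, which encodes the related ligand cortistatin, had 43. The inhibitory G protein subunit Gnai2 was abundant, at 566 CPM in T-N2G DEM, 539 CPM in T-N2G vehicle, 568 CPM in mock DEM and 528 CPM in mock vehicle. Of 11 genes of the list 5 were tested, and 0 were called with T-N2G under DEM or in vehicle by edgeR, by DESeq2, with the block or at an unadjusted p under 0.05. For pirin, the 8 genes of Bcl3 and the NF-kB subunits held 1 call with T-N2G under DEM. Nfkb2, an NF-kB subunit precursor, was lower at 191 CPM in T-N2G DEM against 245 CPM in mock DEM (log2 -0.36 ± 0.07, adjusted p = 0.0122), and the block called 2 lower. In vehicle 0 of the 8 were called by edgeR, by DESeq2, with the block or at an unadjusted p under 0.05.

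Of the tested genes next to the 6 on their chromosomes, edgeR called 1 higher with T-N2G under DEM and 0 in vehicle. Of all tested genes 2.61% were called higher under DEM and 0.305% in vehicle. Foxd1 lies on chromosome 13, Ttn on 2, Daam2 and Sstr5 on 17, Pir on X and Osgin1 on 8. Of the 24 protein-coding genes that are the nearest 2 on each side, 23 were in the table, 3 had 0 fragments and 14 were tested. Mocs1, a molybdenum cofactor synthesis gene beside Daam2, was the only call with T-N2G under DEM, at 13.9 ± 1.17 CPM in T-N2G DEM and 11.3 ± 0.879 CPM in T-N2G vehicle, against 8.05 ± 0.367 CPM in mock DEM and 9.87 ± 0.553 CPM in mock vehicle (SD, n = 3 each; log2 0.79 ± 0.10 under DEM, adjusted p = 0.000523). Sox8 beside Sstr5, a Sox transcription factor, had log2 1.31 ± 0.37 (adjusted p = 0.0807, and 0.00562 with the block), with 1.03 CPM in T-N2G DEM against 0.409 CPM in mock DEM. On the other side of Sstr5, Tekt4 and Cacna1h were too low to be tested. Tekt4 was at 0.17 CPM in T-N2G DEM, 0.0476 CPM in T-N2G vehicle and 0.0 CPM in both mock groups. Cacna1h was at 0.174 CPM in T-N2G DEM and 0.223 CPM in T-N2G vehicle, against 0.379 CPM in mock DEM and 0.316 CPM in mock vehicle. The block called 5 of the 14 higher and 0 lower under DEM, where 10.3% of all tested genes were called higher and 9.32% lower. In vehicle 0 were called by edgeR, by DESeq2 or at an unadjusted p under 0.05. With the block 1 was called higher in vehicle, where 3.06% of all tested genes were. It was Figf beside Pir, which encodes a vascular growth factor (log2 0.32 ± 0.30, adjusted p = 0.00132 with the block). With DEM over vehicle Ccdc141 beside Ttn was lower in T-N2G cells (log2 -0.46 ± 0.10, adjusted p = 0.00862) and in mock cells (log2 -0.36 ± 0.10, adjusted p = 0.0321), where Ttn was not called. With the block 4 of the 14 were called higher and 4 lower by DEM in T-N2G cells (22.8% and 22.2% of all tested genes), and 1 higher and 5 lower in mock cells (20.9% and 21.9%).

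**Figure D4:**
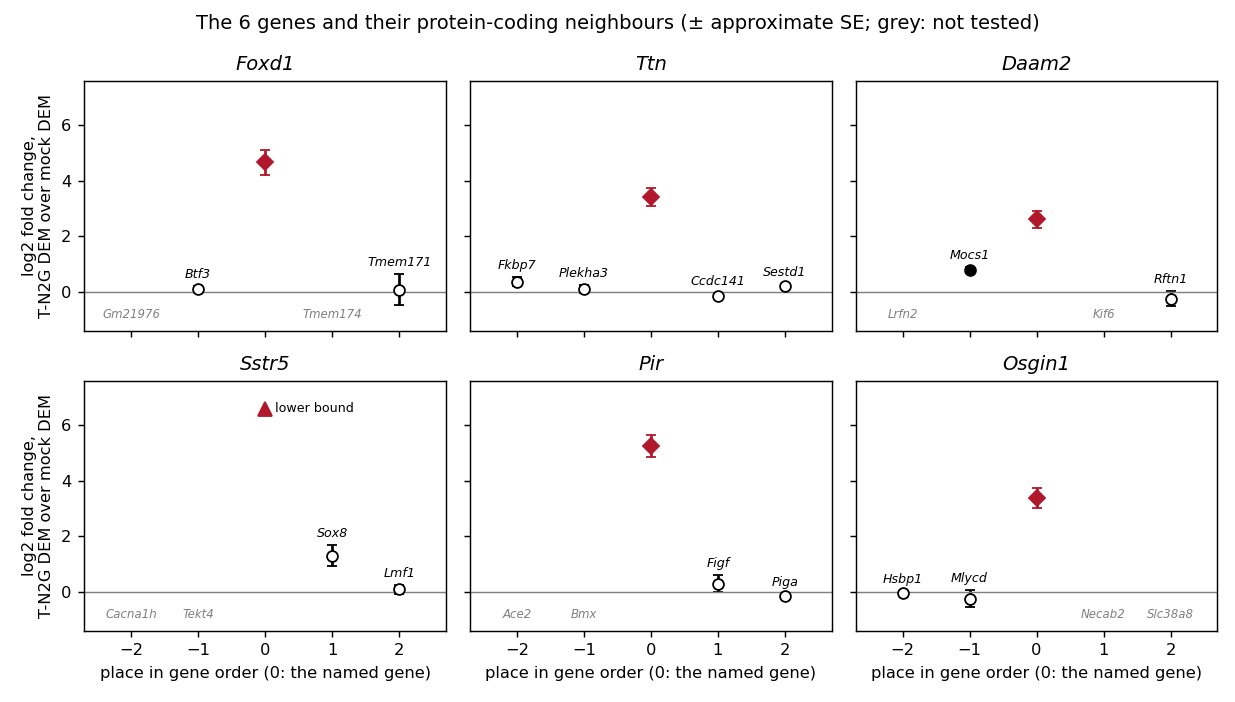
Log2 fold change of T-N2G DEM over mock DEM (y axis) for each of the 6 genes (red diamonds at place 0) and the nearest 2 protein-coding genes on each side (circles) in gene order (x axis), with whiskers of 1 approximate SE; filled circles passed adjusted p 0.05, grey names were not tested, and the triangle of Sstr5 is a lower bound. The red symbols stand at 2.61 or more in every panel, and Mocs1 beside Daam2 at 0.79 is the only filled circle.

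The genes whose pattern over the 12 libraries was most like that of a given gene differed among the 6. Likeness is Pearson's r of log2(CPM + 0.5) over 12 libraries that share the 4 groups, given as a description. The added 0.5 is above the mock means of Foxd1, Sstr5, Pir and Osgin1, which damps differences between their mock libraries. Foxd1 was most like Heph (r = 0.99), a copper-dependent iron oxidase, followed by Gsta4 (0.986) and the ferritin heavy chain gene Fth1 (0.985). Osgin1 was most like Gstm1 (0.988), Fth1 (0.983) and the quinone reductase gene Nqo1 (0.982). Pir was most like the superoxide dismutase gene Sod1 (0.984), the malic enzyme gene Me1 (0.983) and Smarcc1 (0.98), a chromatin remodelling subunit. Sstr5 was most like Gm3776 (0.994), Gclm (0.989) and Gsta1 (0.985), where Gm3776 and Gsta1 are near-identical copies whose reads may be split. The pattern of Ttn was nearest to those of Slc6a17 (0.972), a neuronal amino acid transporter, and of the transgene's own Mafg (0.97) and Nfe2l2 (0.967). Daam2 was nearest to the imprinted gene Peg10 (0.973), the Rac activator gene Tiam1 (0.959) and Ctr9 (0.95), a subunit of the Paf1 transcription complex. Mafg and Nfe2l2 were not called between DEM and vehicle in either population (adjusted p between 0.229 and 0.638), while with the block Mafg was called lower in T-N2G cells (0.00816) and higher in mock cells (0.0379).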

How the data were processed

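Polyadenylated RNA of 12 libraries was prepared with a strand-specific SureSelect kit, per the labels' protocols. The submitters' processing notes name bcl2fastq 2.16.0.10, TopHat2 2.0.8b, Cuffdiff 2.1.1 and the mm9 build; the strand setting of the counting is not given in the sources used here, so reads of overlapping antisense genes cannot be told apart. The authors deposited, per gene and library, an estimated count of fragments and an FPKM value scaled by transcript length and library size; 2 further scaled columns were not used. Of all values 98.3% were whole (tolerance 0), as were all values of the 6 genes. Table conditions were matched to samples through the key that the series text gives. RefSeq promoters and gene order are of GRCm38.p6, another build, and no coordinate was moved between builds.

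Counts were rounded and fitted with edgeR 4.0.16 in R 4.3.3 (filterByExpr with minimum count 10 and minimum total 15, TMM factors 0.9799 to 1.027, 1 coefficient per group, 8 residual degrees of freedom, common biological coefficient of variation 0.11). Tests covered 12469 genes; of the 11849 others, 6658 were at 0 in all libraries. Benjamini-Hochberg adjusted p under 0.05 was a call. The approximate SE follows from edgeR's F statistic, as the absolute log2 fold change over its square root. The 95% intervals of log2 fold changes take this SE and a t quantile with 8 degrees of freedom. The edgeR test adds prior degrees of freedom (median 3.88). An interval can therefore include 0 where the unadjusted p is under 0.05, as for Daam2 in T-N2G cells. The code was tested on simulated data. The binomial interval and the floor of counts cover counting error only, since fragments without molecular identifiers are not independent molecules. Alternatives were DESeq2 1.42.0 (size factors or test), no filter, limma 3.58.1 on log2(FPKM + 1) or log2(FPKM + 0.1), a replicate block, replicates 1 and 2 only, and each library left out.

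The 6 genes, the lists, the tests and the alternatives were chosen with earlier results of these data known. The naming rule takes the 6 genes, Nfe2l2, Mafg and the Y-linked genes, per list up to 3 called genes with the smallest adjusted p in T-N2G over mock under DEM (without a call, the most abundant gene), each called neighbour and the 3 genes most alike. Sox8, Tekt4, Cacna1h, G6pdx, Gsta4, Hmox1, Slc7a11, Thy1, Tnnt2, Mef2c and the other muscle and somatostatin genes given by count or level were picked after their values were seen. The most abundant genes of the lists with no call that are not described were Fhl1, Rhoa, Fn1, Kdr, Cd68, Krt14 and Tubb3.

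Replicate numbers come from the sample titles. Library deviations from their group's mean log2 CPM correlated at r of 0.361 to 0.631 for the 18 same-numbered pairs and -0.422 to -0.00363 for the 36 other pairs, and 12 of 12 libraries correlated best with their own number, so the numbers pair the libraries. The block fit had a coefficient of variation of 0.0428.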

Additional observations from a re-analysis of the deposited data

Results flagged for a closer look

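For 3 of the 6 genes the DEM effect on CPM had opposite signs in the 2 populations in every same-numbered pair, though some mock pairs were nearly tied. The point estimates of Foxd1 also had opposite signs (log2 1.36 in T-N2G cells and -0.31 in mock cells), but its mock pairs went both ways. In each of 3 same-numbered pairs of libraries, Ttn, Pir and Osgin1 had higher CPM with DEM than with vehicle in T-N2G cells and lower CPM with DEM in mock cells. Osgin1 had 4 fragments in both mock libraries of replicate 1 (0.196 CPM with DEM and 0.200 CPM with vehicle). Ttn in mock replicate 3 had 13 fragments with DEM and 12 with vehicle (0.561 and 0.566 CPM). The sign of these mock pairs rests on the scaling to library size. The DEM effect in T-N2G minus that in mock cells was log2 0.78 for Ttn, 3.41 for Pir and 1.77 for Osgin1. The difference was not tested, because it equals the difference of the T-N2G over mock comparisons that chose these genes. None of the 3 mock effects was called without the block, and 8 and 23 fragments stood behind that of Pir, 39 and 45 behind that of Ttn, and 20 and 22 behind that of Osgin1 in the DEM and the vehicle group. With single libraries left out the mock effect of Osgin1 turned positive in 3 fits (log2 0.02, 0.02 and 0.33) and that of Ttn in 1 (0.08).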

How the results depend on the processing

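Of 238 alternative values of the DEM effects of the 6 genes, 217 kept both direction and call. The exceptions follow. In T-N2G cells the replicate block added calls for Ttn (log2 0.51, adjusted p = 0.00562) and Daam2 (-0.49, 0.0481), and replicates 1 and 2 alone took out the call of Osgin1 (1.49, 0.102). In mock cells the block added a call for Pir (-1.54, 0.0443). In the average over both populations Osgin1 gained a call with the block (0.69, 0.0417), with limma on log2(FPKM + 0.1) (0.66, 0.0286) and on log2(FPKM + 1) (0.39, 0.00185). On the last scale Foxd1 (0.46, 0.0307) and Pir (0.50, 0.000816) gained a call and Daam2 lost it (-0.10, 0.063), as it did in replicates 1 and 2 alone (-0.79, 0.0636). The block changed no other call of the 6 genes. The cause of these changes was not tested.

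With each library left out in turn, Foxd1 in T-N2G cells ran from 1.05 to 1.92 and in the average from 0.37 to 0.81, where it was called without T-N2G vehicle replicate 3. Osgin1 ran from 0.41 to 0.95 in the average, called without mock vehicle replicate 2. Osgin1 in mock cells ran from -0.74 to 0.33 and turned positive without mock DEM replicate 1 (0.02), mock DEM replicate 3 (0.02) or mock vehicle replicate 2 (0.33). Ttn in mock cells ran from -0.43 to 0.08, positive without mock vehicle replicate 1 (0.08), and Pir in the average from -0.06 to 0.39, negative without mock DEM replicate 1 (-0.06). No alternative gave Sstr5 a value outside T-N2G cells, since a group there had at most 1 fragment.

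Of 130 alternative values of T-N2G over mock, 102 moved by less than 1 SD of the replicates and none changed sign. The FPKM scales understate low genes, with Ttn under DEM at 0.10 on log2(FPKM + 1).

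Counts over all tested genes moved more. With T-N2G in vehicle, 38 were called higher and 1 lower, against 381 and 404 with the block, 82 and 26 by DESeq2's test, 25 higher on log2(FPKM + 1), 3 lower without the filter, 5 higher in replicates 1 and 2 alone, and 14 to 35 higher and 0 to 3 lower with a library left out. With T-N2G under DEM, 325 were called higher and 138 lower, against 1283 and 1162 with the block, 258 lower by DESeq2, 117 and 22 in replicates 1 and 2, and 212 to 284 and 63 to 129 with a library left out. For DEM in T-N2G cells, 1255 and 941 became 2846 and 2769 with the block, 305 and 174 in replicates 1 and 2, and 756 to 962 and 568 to 748 with a library left out. For DEM in mock cells, 966 and 770 became 2603 and 2736 with the block, 57 and 67 in replicates 1 and 2, and 521 to 662 and 380 to 545 with a library left out. For the average, 2168 and 1966 became 3535 and 3700, 1157 and 946, and 1829 to 2065 and 1686 to 1914 in the same order. Depth limits mock values most, where groups held 0 to 45 fragments of a gene.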
